A study of Mus musculus with 6 samples.

Results

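The transcripts of 10 inflammatory CC chemokines were compared between macrophage populations labelled MHC-II high and MHC-II low. The macrophages were sorted from mouse tumours of a lung cancer line, grown under the skin. The chemokines were Ccl2, Ccl3, Ccl4, Ccl5, Ccl6, Ccl7, Ccl8, Ccl9, Ccl12 and Ccl24. The genes were chosen by name, as chemokines that recruit monocytes, T cells and eosinophils. They were 10 of 55487 genes in the count tables, and all 10 were among the 14140 genes tested. Transcripts of MHC class II ran opposite to these labels in every library, as given below, so each direction is that of the label as deposited. In the libraries labelled MHC-II high, the monocyte attractants Ccl2, Ccl7 and Ccl12 stood at 157, 90.5 and 33.4 CPM (read counts normalised to library size), against 84.4, 38 and 15.1 CPM in the libraries labelled MHC-II low. Ccl5, Ccl6 and Ccl24 stood the other way, at 1.21, 332 and 2.72 CPM against 3.80, 508 and 11.5 CPM. The first 3 were higher and the other 3 lower with no overlap between the labels, beside 10.5% and 9.48% of all tested genes, and none of the 10 passed an adjusted p of 0.05 in the test across all genes.

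Tumours were grown from Lewis lung carcinoma, a transplantable mouse lung cancer line, under the skin of C57BL/6 mice and were taken at day 15 to 17. Both groups were macrophages of these tumours with CD11b and F4/80 on their surface and without Ly6C and Ly-6G, and they differed by the surface level of MHC class II, the molecule that presents peptides to helper T cells. Each label had 3 libraries, 1 in each of batches 1, 2 and 3, made from total RNA after ribosomal RNA was depleted. The labels give no age and do not state whether libraries came from separate or pooled animals. The p-values below thus set the difference between labels against the spread among these libraries, and that spread may be technical.

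Chemokines are small secreted proteins that guide leukocytes along a gradient. The CC class has a pair of adjacent cysteines near the start of the mature protein and acts on G protein-coupled CC receptors. Ligands of CCR2, such as CCL2, draw monocytes out of the bone marrow and into tumours, where they become macrophages. Ligands of CCR1 act on monocytes, macrophages and T cells, and ligands of CCR3 on eosinophils. Many ligands share a receptor, and a macrophage can be both a source and a target of the same chemokine.

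The stretch of coding sequence around the paired cysteines shows what the genes share and how far they differ, and it is given for 9 of the 10. Each line gives 36 bases of the coding strand, 5′ to 3′, read from GRCm38 with GENCODE M21 coding exons, and the capitals mark the codons of the adjacent cysteines.
Ccl2: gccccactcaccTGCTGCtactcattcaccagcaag
Ccl7: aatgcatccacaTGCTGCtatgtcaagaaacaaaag
Ccl12: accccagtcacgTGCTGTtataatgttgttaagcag
Ccl8: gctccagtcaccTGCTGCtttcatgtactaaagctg
Ccl4: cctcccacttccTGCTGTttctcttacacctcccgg
Ccl5: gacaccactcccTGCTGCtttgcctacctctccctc
Ccl6: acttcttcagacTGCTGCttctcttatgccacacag
Ccl9: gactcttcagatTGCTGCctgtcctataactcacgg
Ccl24: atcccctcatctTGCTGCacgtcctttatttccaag
The second cysteine is written TGT in Ccl4 and Ccl12 and TGC in the others shown. The stretch lies in exon 2 of 3 of every member shown except Ccl6 and Ccl9, where it lies in exon 3 of 4. Ccl6 and Ccl9 also have the first of these cysteines at codons 50 and 57, against codons 32 to 34 in the others. The closest coding sequences were those of Ccl3 and Ccl4, with 68.1% identical bases, then Ccl7 and Ccl8 with 64.7% and Ccl6 and Ccl9 with 64.6%. As a measure of sequence shared between genes, no run of 50 bases in the transcripts of 9 members occurred in a transcript of another gene, and for Ccl9 this held for all but 59 of 2996 such runs (1.97%).

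Of the 10 members, 9 lie on chromosome 11 in 2 groups, and Ccl24 lies alone on chromosome 5. The first group, read left to right on the plus strand, is Ccl2 (chr11:82035571-82037453), Ccl7 (chr11:82045712-82047525), Ccl12 (chr11:82101845-82103400) and Ccl8 (chr11:82115185-82116799). The second group lies farther along, and its nearest start site, that of Ccl5, is 1494.9 kb from that of Ccl2. It holds Ccl5 (chr11:83525778-83530518), Ccl9 (chr11:83572919-83578636), Ccl6 (chr11:83587882-83593087) and Ccl3 (chr11:83647844-83649355) on the minus strand and Ccl4 (chr11:83662584-83664683) on the plus strand. Ccl24 is at chr5:135569937-135573049 on the minus strand. All are GRCm38 coordinates of whole genes from GENCODE M21. On the opposite strand, Gm17268 overlaps Ccl2 and had at most 1 read in a library. E230016K23Rik overlaps Ccl6 and had 12 to 75 reads, against 2427 to 12194 for Ccl6. These overlaps are of whole genes, and the transcripts of Ccl2 and Ccl6 shared no run of 50 bases with another gene on either strand. The strand setting used for counting is not stated, so reads in any shorter overlap cannot be told apart.

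Promoters of 5 members, Ccl3, Ccl6, Ccl8, Ccl9 and Ccl12, were in the RefSeq promoter table for GRCm38. Those of a neighbouring pair, Ccl12 and Ccl8, and of the most abundant pair, Ccl6 and Ccl9, are shown as the 250 bases before the start of transcription, 5′ to 3′ on the gene's strand. Capitals mark TATAAA, the core of the TATA box, on either strand.
Ccl12, chr11:82101595-82101844, plus strand: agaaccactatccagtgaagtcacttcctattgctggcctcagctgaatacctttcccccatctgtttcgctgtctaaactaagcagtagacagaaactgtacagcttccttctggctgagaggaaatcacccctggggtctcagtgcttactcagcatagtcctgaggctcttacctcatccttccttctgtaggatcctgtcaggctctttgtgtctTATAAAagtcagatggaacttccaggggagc
Ccl8, chr11:82114935-82115184, plus strand: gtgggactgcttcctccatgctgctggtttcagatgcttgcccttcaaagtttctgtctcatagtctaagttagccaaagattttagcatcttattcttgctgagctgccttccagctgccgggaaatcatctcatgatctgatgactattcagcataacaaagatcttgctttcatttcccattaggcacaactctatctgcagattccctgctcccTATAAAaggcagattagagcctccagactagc
Ccl6, chr11:83593088-83593337, minus strand: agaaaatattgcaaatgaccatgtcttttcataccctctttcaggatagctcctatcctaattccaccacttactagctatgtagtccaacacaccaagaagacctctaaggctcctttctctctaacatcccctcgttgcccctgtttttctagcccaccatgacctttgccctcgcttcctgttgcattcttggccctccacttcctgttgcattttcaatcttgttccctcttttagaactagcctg
Ccl9, chr11:83578637-83578886, minus strand: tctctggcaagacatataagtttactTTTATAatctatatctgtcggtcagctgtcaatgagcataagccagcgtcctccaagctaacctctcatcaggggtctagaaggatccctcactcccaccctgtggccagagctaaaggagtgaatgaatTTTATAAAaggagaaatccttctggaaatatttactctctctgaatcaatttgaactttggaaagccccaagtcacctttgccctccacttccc
TATAAA began 31 bases before the start of Ccl12 and 32 bases before that of Ccl8, and 12.4% of 32851 promoters held it within the same 250 bases on either strand. The promoters of Ccl12 and Ccl8 shared 55.6% of aligned bases, the highest of the 10 pairs among the 5 promoters, where the others shared 43.7% to 50.4%. Further letter patterns were searched on both strands. AGGAAG, the core bound by PU.1, the transcription factor that sets myeloid identity, was found at 3 places in Ccl12, 2 in Ccl6 and 1 in Ccl8, and in 29.5% of all promoters. TGANTCA, a loosened AP-1 pattern that allows any middle base, was found once in Ccl9 and in 6.75% of all promoters. The match in Ccl9 reads TGAATCA, without the C or G that the AP-1 pattern has in the middle. These are letter matches in short windows and not measured binding.

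The library labels were checked against transcripts of MHC class II before any direction was read. H2-Aa, a chain of MHC class II, was at 5.52 ± 1.1 CPM (SD, n = 3) where the label was MHC-II high and at 1350 ± 170 CPM (SD, n = 3) where it was MHC-II low, and its 3 companions H2-Ab1, H2-Eb1 and Cd74 went the same way. The transcripts thus went against the labels in all 6 libraries, and every direction below is that of the label as deposited. Reads in genes numbered 10202879 to 25473051 per library. Replicate 3 of the low label stood apart from the other libraries, with 54.2% of its gene reads in rRNA and mitochondrial genes (23% to 29.7% in the others), 6439 reads in the 10 chemokines (23986 to 47035 in the others) and a level that climbed with GC content. Over 14123 genes, fold change and GC content were correlated (Spearman rho −0.58). A fit with a GC offset, which takes out each library's trend, is therefore given beside several of the chemokines and for several of the other lists. F4/80 (Adgre1) was at 344 and 184 CPM, Ly6c2 had 19 and 21 reads in all and Ly6g had none, beside a gate for F4/80 and against Ly6C and Ly-6G. In bulk RNA, fewer cells of a kind and less RNA per cell cannot be told apart.

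Across all genes, edgeR's quasi-likelihood test with Benjamini-Hochberg adjustment called 63 of 14140 genes (0.446%), 13 higher and 50 lower with the high label. With the batch as a block it called 1 higher and 40 lower. Of the 10 chemokines 0 were called, with or without the block, while 6 had an unadjusted p under 0.05, against 12.1% of all tested genes. The CPM of 3 members were all higher with the high label with no overlap (10.5% of tested genes) and those of 3 were all lower (9.48% of tested genes). The median log2 fold change of the members was −0.09, with 4 of 10 positive, beside −0.02 and 48.5% positive for all tested genes. The chemokines as a set therefore had no common direction. DESeq2 called 5 members (2.81% of genes), the GC offset 1 (2.59%), and the GC offset with the block 5 (4.36%).

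**Figure D1:**
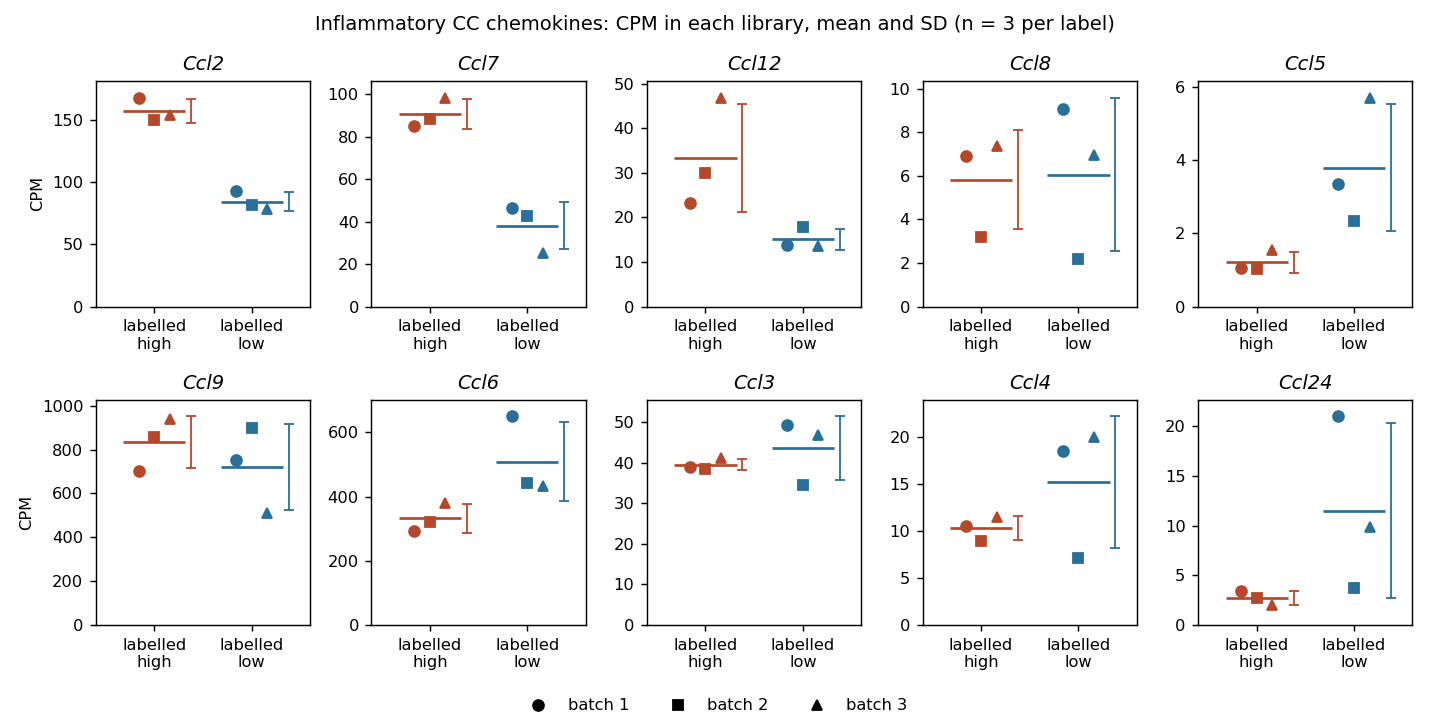
CPM of each chemokine in the 6 libraries, by label, with each vertical axis starting at 0. Points are libraries with a shape per batch, lines are means and side bars are SD (n = 3). Ccl2, Ccl7 and Ccl12 lay higher in all libraries labelled MHC-II high, Ccl5, Ccl6 and Ccl24 lay lower in all of them, and Ccl8, Ccl9, Ccl3 and Ccl4 overlapped.

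Ccl2, the main CCR2 ligand, had 168, 150 and 154 CPM in replicates 1, 2 and 3 labelled MHC-II high and 93.0, 81.9 and 78.2 CPM in those labelled MHC-II low. The libraries of each label lay close together and far from those of the other. This amounted to a log2 fold change of 0.90 (SE 0.16, adjusted p 0.0824, edgeR), or 1.86-fold, and the ratios within batches 1, 2 and 3 were 0.85, 0.87 and 0.98 on the log2 scale. DESeq2 called it (adjusted p 0.000185), as did the GC offset with the block (0.0283). The GC offset alone gave 0.69 (adjusted p 0.0644, edgeR) and the block alone 0.90 (0.231), and neither called it.

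Ccl7, a second CCR2 ligand that also acts on other CC receptors, had 84.8, 88.5 and 98.3 CPM with the high label and 46.3, 42.5 and 25.3 CPM with the low label. Its lowest library was the one labelled MHC-II low replicate 3, and the others of that label were still below all 3 labelled high. The log2 fold change was 1.24 (SE 0.24, adjusted p 0.0962, edgeR), or 2.37-fold. It was 1.03 with the GC offset (adjusted p 0.00745) and 1.03 without the library labelled MHC-II low replicate 3 (adjusted p 0.0379, edgeR, in a fit that called 0.469% of genes), and both of these fits called it. Within batches the log2 ratios were 0.87, 1.06 and 1.95.

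Ccl12, a rodent ligand of CCR2, had 23.2, 30.1 and 46.9 CPM with the high label and 13.8, 17.8 and 13.7 CPM with the low label. The libraries labelled high were spread over a range of their own, which began 1.3-fold above the highest library labelled low. Their log2 fold change was 1.14 (SE 0.29, adjusted p 0.194, edgeR), with 0.75, 0.76 and 1.76 within batches. DESeq2 gave an adjusted p of 0.0242 and the GC offset with the block 0.0135. The GC offset alone gave a log2 fold change of 0.89 (adjusted p 0.0756, edgeR) and did not call it.

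Ccl8, the immediate neighbour of Ccl12, belongs to the same monocyte chemoattractant subfamily. It had 6.9, 3.21 and 7.37 CPM with the high label and 9.06, 2.17 and 6.96 CPM with the low label. The range with the high label lay inside that with the low label, and batch 2 held the lowest library of each. The log2 fold change was −0.04 with a 95% interval from −1.25 to 1.18, which includes a difference as large as that of Ccl12.

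Ccl3 and Ccl4, known as MIP-1 alpha and beta, which attract monocytes and T cells, showed no separation. Ccl3 had 39.0, 38.5 and 41.1 CPM with the high label and 49.3, 34.6 and 46.9 CPM with the low label, a log2 fold change of −0.14 (95% interval −0.58 to 0.30, adjusted p 0.71, edgeR). Ccl4 had 10.6, 8.91 and 11.5 CPM against 18.5, 7.15 and 20.0 CPM, a log2 fold change of −0.54 (95% interval −1.39 to 0.31, adjusted p 0.51, edgeR). For both, the libraries of the high label were close together and those of the low label lay on either side of them, with batch 2 lowest. Without the library labelled MHC-II low replicate 2, Ccl4 had a log2 fold change of −0.86 and passed the threshold (adjusted p 0.0486, edgeR). That fit called 7.16% of all genes.

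Ccl5, or RANTES, which attracts T cells and eosinophils and is made by T cells as well as macrophages, was the scarcest member, per length as well as in reads. It had 1.06, 1.02 and 1.54 CPM (19, 23 and 43 reads) with the high label and 3.36, 2.33 and 5.71 CPM (63, 57 and 32 reads) with the low label. All 3 libraries labelled low lay above all 3 labelled high, and the log2 fold change was −1.58 (SE 0.41, adjusted p 0.21, edgeR), or 2.99-fold lower. The within-batch log2 ratios were −1.64, −1.17 and −1.90. DESeq2 called it (adjusted p 0.024), as did the GC offset with the block (0.0397). The GC offset alone gave −1.27 (adjusted p 0.11, edgeR) and did not call it. Transcripts of T and NK cells were at or near the limit of detection. Of 17 markers 2 passed the filter, and Cd3d, Cd3e, Cd8a, Trbc2 and Eomes had no read in any library. The summed CPM of the 17 was 1.95 to 2.22 with the high label and 4.82 to 6.29 with the low label. The 2 tested were Cd2, at 0.61 and 2.31 CPM (adjusted p 0.167, edgeR), and Cd4, at 0.856 and 1.75 CPM (0.42). The other markers had too few reads to be tested. The part of T and NK cells in the Ccl5 result was not tested.

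Ccl9 and Ccl6, ligands of CCR1 that macrophages make at high levels, were the most abundant members, at the 99.5th and 98.7th percentile of tested genes by mean CPM. Ccl9 had 704, 855 and 939 CPM with the high label and 752, 899 and 509 CPM with the low label. The ranges overlapped, and the library labelled MHC-II low replicate 3 was the lowest. For Ccl9 the log2 fold change was 0.21 (95% interval −0.35 to 0.77, adjusted p 0.666, edgeR), and it was −0.02 with the GC offset and 0.01 without that library.

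Ccl6 had 293, 322 and 380 CPM with the high label and 650, 441 and 433 CPM with the low label. All libraries labelled low lay above those labelled high, by a gap of 1.14-fold, and replicate 1 labelled MHC-II low was the highest. The log2 fold change was −0.62 (SE 0.22, adjusted p 0.374, edgeR), with −1.15, −0.46 and −0.19 within batches. The GC offset with the block gave −0.77 and an adjusted p of 0.0369. The GC offset alone gave −0.80 (adjusted p 0.065, edgeR) and DESeq2 −0.62 (0.214), and neither called it.

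Ccl24, or eotaxin-2, is a ligand of CCR3 that attracts eosinophils and is induced in macrophages by IL-4. It had 3.45, 2.72 and 2.00 CPM with the high label and 21, 3.68 and 9.81 CPM with the low label. The libraries labelled low were widely spread, and the lowest of them exceeded the highest labelled high by 1.07-fold. Ccl24 thus had a log2 fold change of −2.09 (95% interval −3.42 to −0.76, adjusted p 0.235, edgeR), with −2.60, −0.43 and −2.29 within batches. DESeq2 called it (adjusted p 0.0106), and without the library labelled MHC-II low replicate 2 edgeR called it too (log2 fold change −2.51, adjusted p 0.00986; 7.16% of all genes passed there). Without the library labelled MHC-II low replicate 1, its highest, the log2 fold change was −1.24 (adjusted p 0.679, edgeR). Of 9 markers of mast cells, basophils and eosinophils, Epx and Mcpt8 had no read, and the 9 summed to 0.644 to 1.2 CPM with the high label and 2.18 to 3.8 CPM with the low label. That difference lay in Kit, the 1 marker tested (adjusted p 0.0791, edgeR; 0.0208 with the GC offset). Kit, which dendritic precursors also express, had 0.0715 to 0.356 CPM with the high label and 1.6 to 2.86 CPM with the low label. The other 8 summed to 0.334 to 0.846 CPM and 0.357 to 0.94 CPM, so that they overlapped. The part of such cells in the Ccl24 result was not tested.

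**Figure D2:**
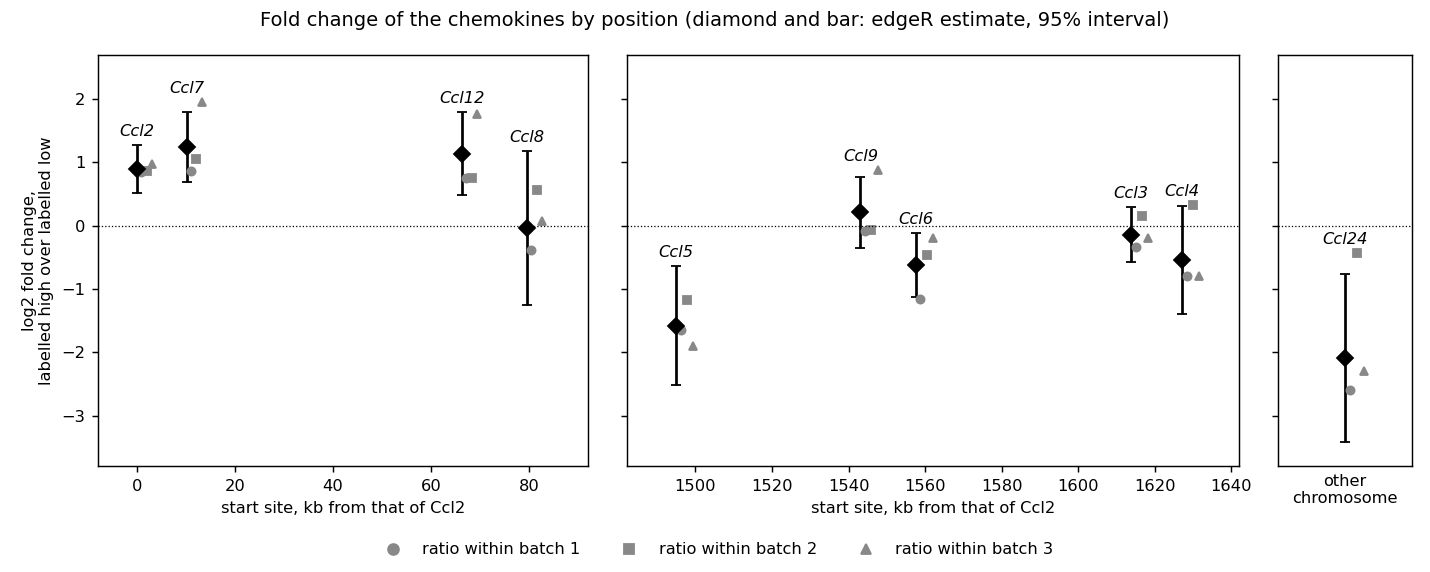
The log2 fold change of each chemokine against the distance of its start from that of Ccl2 in kb, with Ccl24 of another chromosome at the right. Diamonds and bars are edgeR estimates with 95% intervals, and grey symbols are the ratios within each batch. In the first group Ccl2, Ccl7 and Ccl12 lay above 0 in every batch and Ccl8 on both sides, and in the second group Ccl5 and Ccl6 lay below 0 in every batch.

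Plotted by position, the members Ccl2, Ccl7 and Ccl12 came in this order, with log2 fold changes of 0.90, 1.24 and 1.14. The next member, Ccl8, had −0.04. Ccl9 and Ccl6 are adjacent among the members and had 0.21 and −0.62. Other genes lying between the members were not plotted. The intervals of Ccl12 and Ccl8 overlapped, as did those of Ccl9 and Ccl6, and the differences between genes were not tested. Within the first group 3 of 4 genes had positive ratios in all 3 batches, and within the second group 2 of 5 had negative ratios in all 3. These counts are descriptions only, since the share of all tested genes with the same sign in all 3 batches is not given here. GC content in the annotation differed among the members. Those with a positive log2 fold change, Ccl9, Ccl12, Ccl7 and Ccl2, have 42.1%, 42.1%, 42.9% and 44.3% GC. All the others are negative, and Ccl6, Ccl3, Ccl8 and Ccl4 have 45.1%, 46.2%, 47.6% and 49.2%. The 2 with the most negative log2 fold change, Ccl24 and Ccl5, have 51.2% and 52.8%. At the same 42.1% GC, Ccl9 and Ccl12 had log2 fold changes of 0.21 and 1.14.

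The share of each member among the reads of the 10 within a library does not depend on how libraries are scaled. Ccl9 took 52.8%, 57% and 55.9% of these reads with the high label and 45.4%, 58.7% and 44.3% with the low label. Ccl6 took 22%, 21.5% and 22.6% against 39.2%, 28.8% and 37.7%, so that its share was nearly constant with the high label and higher in every library labelled low. Ccl2 took 12.6%, 9.98% and 9.16% against 5.62%, 5.34% and 6.8%. Ccl7 took 6.35%, 5.9% and 5.84% against 2.8%, 2.77% and 2.21%. Ccl2, Ccl7, Ccl12 and Ccl8 together made up 18.1% to 21.2% of the chemokine reads with the high label and 9.42% to 10.8% with the low label. The shares of Ccl2, Ccl5, Ccl6, Ccl7 and Ccl12 had no overlap between the labels. Each gave a two-sided exact permutation p of 0.1, which is the smallest that 3 against 3 libraries allow, and 0.2 after Benjamini-Hochberg adjustment over the 10 members. The ratio of Ccl2 to Ccl6 reads was 0.574, 0.465 and 0.406 with the high label and 0.143, 0.186 and 0.18 with the low label. Without the library labelled MHC-II low replicate 3, the difference in share was −12 percentage points for Ccl6 (−13.2 with it) and 5.1 for Ccl2 (4.66 with it).

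**Figure D3:**
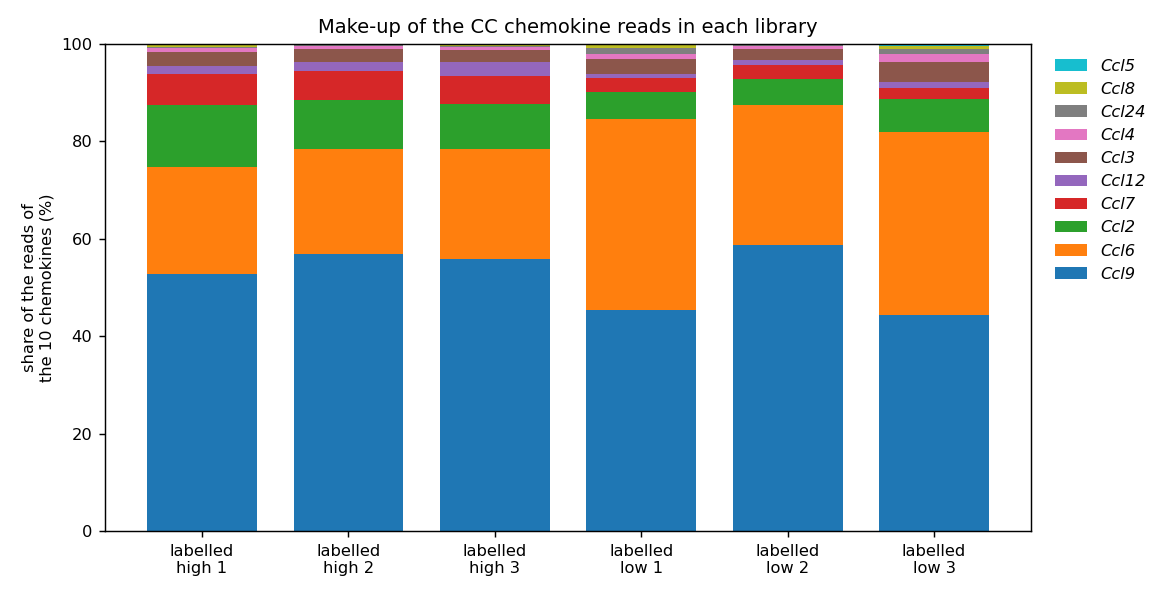
Share of each chemokine among the reads of the 10 in each library, in percent. Ccl9 and Ccl6 together made up 74.7% to 78.5% with the high label and 82% to 87.5% with the low label, and the blocks of Ccl2 and Ccl7 were taller in all 3 libraries labelled MHC-II high.

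Levels of different members were compared as CPM per kb of exon. With the high label the order was Ccl9 (274 ± 39 CPM per kb, SD, n = 3), Ccl6 (185 ± 24), Ccl2 (138 ± 8.5), Ccl7 (113 ± 8.7), Ccl12 (62.2 ± 23), Ccl3 (51.6 ± 1.8), Ccl4 (15.7 ± 2.0), Ccl8 (11.4 ± 4.5), Ccl24 (2.1 ± 0.56) and Ccl5 (1.26 ± 0.3). Neighbours in this order overlapped for Ccl12 and Ccl3, for Ccl4 and Ccl8, and for Ccl24 and Ccl5. With the low label Ccl6 came first (283 ± 68 CPM per kb, SD, n = 3), then Ccl9 (237 ± 65), Ccl2 (74.1 ± 6.8), Ccl3 (56.9 ± 10), Ccl7 (47.5 ± 14), Ccl12 (28.2 ± 4.4), Ccl4 (23 ± 11), Ccl8 (11.9 ± 6.9), Ccl24 (8.88 ± 6.8) and Ccl5 (3.96 ± 1.8). Here only the steps from Ccl9 to Ccl2 and from Ccl2 to Ccl3 had no overlap. Of the 10 members 5 kept their rank, and Ccl6 exchanged places with Ccl9, while Ccl3 moved ahead of Ccl7 and Ccl12.

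Over the 6 libraries, on log2(CPM + 1), Ccl3 and Ccl4 followed each other most closely among the members (Pearson r 0.98, and 0.97 after each label's mean was taken out). Ccl2 and Ccl7 had r 0.95, and 0.57 within labels. Ccl8 went with Ccl3 and Ccl4 (0.82 with each) rather than with its neighbour Ccl12 (−0.07). The gene outside the members most like Ccl2 was Lyz2, the lysozyme of macrophages (r 0.997), at 6460 and 3380 CPM. Tradd, an adaptor of the TNF receptor, was most like Ccl4 (0.998) and also Ccl3 (0.984). For 6 others these were Rab7 for Ccl7, Elp4 for Ccl12, Ywhab for Ccl8, Ppm1h for Ccl5, Ms4a8a for Ccl6 and Tkfc for Ccl24. Each is the closest of 8966 protein-coding genes over 6 points that share labels, batches and the GC trend, and is given as a description.

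Of 13 other CC chemokines 3 passed the filter on low counts and 1 was called. Ccl22, a CCR4 ligand of dendritic cells and macrophages, fell to 0.586 ± 0.089 CPM with the high label from 12.3 ± 1.5 CPM with the low label (SD, n = 3; log2 fold change −4.36, adjusted p 0.000577, edgeR). Its partner Ccl17, also a CCR4 ligand, had 0 and 13 reads over the 3 libraries of each label. Ccl11 and Ccl25 had log2 fold changes of −0.003 and −0.001, and 7 of the 13 had no read. Beside Ccl22, 3 of 7 tested dendritic cell markers were called lower with the high label (Ccr7, Itgax and Flt3), and 5 with the GC offset. The summed CPM of all 9 was 47.5 to 90 with the high label and 263 to 399 with the low label, and none of the 9 was at 0 in every library. The count of dendritic cell genes called was 0 without the library labelled MHC-II high replicate 2, 1 without MHC-II high replicate 1 or MHC-II low replicate 1, and 5 without MHC-II low replicate 2, while Ccl22 was called in each of these fits. The part of dendritic cells in the Ccl22 result was not tested.

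Of 11 CC receptors 6 were tested and 1, Ccr7, was called, with 1 read with the high label and 229 with the low label (adjusted p 0.00684, edgeR). Without the library labelled MHC-II high replicate 2, or without batch 3, 0 receptors were called, and without MHC-II low replicate 2 or 3 the count was 2. Ccr2, the receptor of Ccl2, Ccl7 and Ccl12, ran opposite to these ligands. It had 160, 229 and 246 CPM with the high label and 515, 763 and 286 CPM with the low label, a log2 fold change of −1.30 (SE 0.35, adjusted p 0.219, edgeR). With the GC offset this was −1.53 (adjusted p 0.00281). Ccr1, the receptor of Ccl6 and Ccl9, had 163, 236 and 242 CPM against 201, 293 and 154 CPM, and its log2 fold change was −0.02. Ccr3, the receptor of Ccl24, was at 2.43 ± 0.38 and 1.48 ± 1.0 CPM (SD, n = 3). Of 5 atypical receptors, which bind chemokines without G protein signalling, 2 were tested and 0 called, and Ccrl2 had a log2 fold change of −0.59 (adjusted p 0.367, edgeR).

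**Figure D4:**
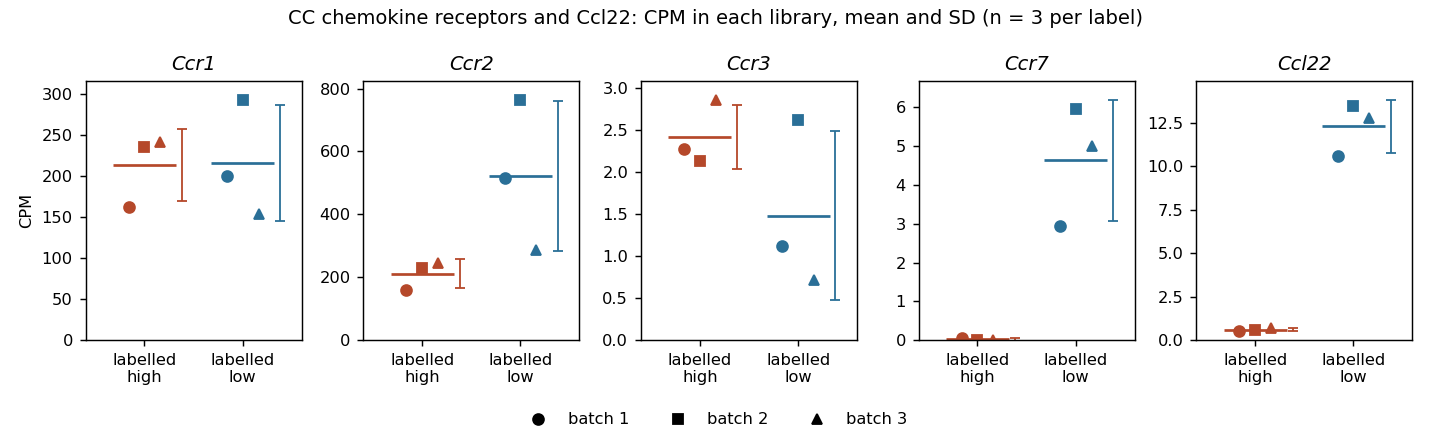
CPM of 4 CC receptors and of Ccl22 in the 6 libraries, by label, with points for libraries, a shape per batch, lines for means and side bars for SD (n = 3). Ccr2, Ccr7 and Ccl22 were lower in all 3 libraries labelled MHC-II high, and Ccr1 and Ccr3 overlapped.

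Genes that act before and after the chemokines were mostly below the threshold. Of 25 genes of NF-kB signalling, the main inducer of several members, 1 was called: Il1b fell to 51.4 ± 11 CPM with the high label from 158 ± 30 CPM (SD, n = 3; adjusted p 0.0311, edgeR), and the block ended the call (0.0742). Tlr2, a receptor upstream of NF-kB, was at 191 and 111 CPM (adjusted p 0.14, edgeR; 0.00995 with the GC offset). The median log2 fold change of this list was −0.29. Of 15 genes of the IL-4 and IL-13 response, which induces Ccl24 and Ccl22 in macrophages, 2 were lower, Retnla (log2 fold change −6.15, adjusted p 0.000731, edgeR) and Mgl2 (−3.39, adjusted p 0.0217), and the list's median was −0.06. Arg1, another target of IL-4, stood the other way, at 1710 ± 80 and 908 ± 86 CPM (SD, n = 3; adjusted p 0.0966, edgeR; 0.00641 with the GC offset). The GC offset called 1 gene of this list higher and 3 lower, and 1 NF-kB gene higher and 1 lower. Of 25 genes that carry the receptor signal 0 were called (median −0.27), and 3 were lower with the GC offset: Grk3, a receptor kinase (adjusted p 0.026), Arrb1, a beta-arrestin (0.0372), and Plcb2, a phospholipase (0.0461). Of 10 tested proteases and binding partners that trim or display chemokines 0 were called (median −0.61), and 2, Sdc4 and Ndst1, were lower with the GC offset. Sdc4, a heparan sulphate carrier, was at 150 ± 11 and 267 ± 36 CPM (SD, n = 3; adjusted p 0.132, edgeR; 0.0161 with the GC offset). Of 20 immediate-early and heat shock genes, which respond to tissue dissociation as well as to stimuli, 1 was called: Btg2 was lower with the high label (log2 fold change −1.03, adjusted p 0.0401, edgeR), and the block ended the call (0.179). The list's median was −0.42. The calls of Il1b and Btg2 were each lost without any 1 of the libraries labelled MHC-II high and without MHC-II low replicate 1, where 0 genes of either list were called. Without MHC-II low replicate 2 the counts were 8 and 6. The IL-4 list had 1 call without MHC-II high replicate 1 or 2 or MHC-II low replicate 1, and 6 without MHC-II low replicate 2.

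Markers of macrophages and of other cells were read beside the chemokines. Of 10 macrophage markers 0 were called by edgeR, and their median log2 fold change was −0.3, with 4 positive. Of these 2, Lyz2 (lysozyme) and Adgre1, were higher with the high label with no overlap, the direction of Ccl2, Ccl7 and Ccl12. Others went the other way, such as C1qb (−0.68) and Csf1r (−0.52), but 0 were lower with no overlap. Lyz2 had 7020, 5900 and 6450 CPM with the high label and 3690, 3240 and 3220 CPM with the low label (adjusted p 0.122, edgeR; 0.0116 with the GC offset; DESeq2 7.33e-05). Adgre1 had 337, 321 and 372 CPM against 219, 183 and 151 CPM (adjusted p 0.132, edgeR; 0.0158 with the GC offset; DESeq2 0.00354). The whole list summed to 10200 to 12300 CPM and 6900 to 12400 CPM, which overlapped.

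Of 5 tested monocyte markers 0 were called (median −1.01), and 1, Ccr2, was lower with the GC offset. That list summed to 266 to 378 CPM with the high label and 345 to 941 CPM with the low label. Of 3 tested epithelial or tumour markers 1 was called: Cdh1, or E-cadherin, was at 10.3 ± 1.2 CPM and 33.9 ± 3.7 CPM (SD, n = 3; log2 fold change −1.71, adjusted p 0.018, edgeR). No gene of that list was called with total-count scaling, without batch 3, without any 1 of the libraries labelled MHC-II high, or without MHC-II low replicate 1. Krt8 and Krt18, keratins of epithelium, overlapped, Cldn4 had no read, and the list summed to 14.8 to 21.7 CPM and 41 to 42.6 CPM. Neutrophil markers summed to 7.74 to 20.6 CPM and 4.48 to 11.6 CPM, with Ly6g and Camp at 0. Fibroblasts also make Ccl2 and Ccl7, and their markers summed to 72.4 to 411 CPM and 129 to 599 CPM, with 0 of 7 called. Of 1 tested B cell marker and 4 tested endothelial markers 0 were called. The part of these cells in the chemokine values was not tested.

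**Figure D5:**
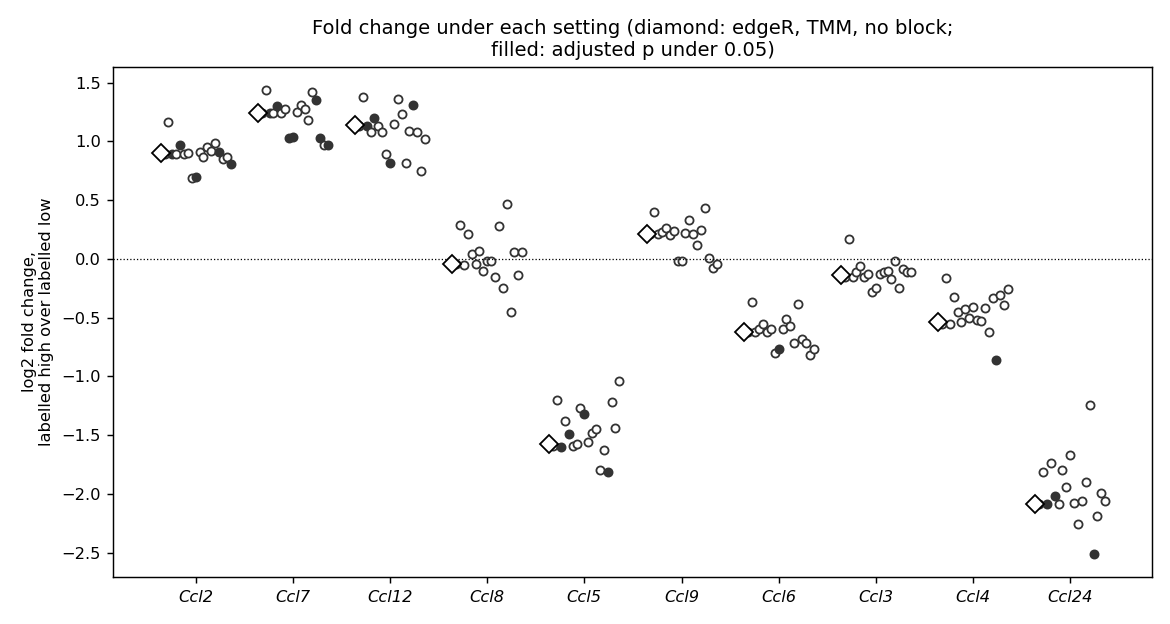
The log2 fold change of each chemokine in the edgeR test (diamond) and in 18 other settings (circles, filled where the adjusted p was under 0.05). Ccl2, Ccl7 and Ccl12 lay above 0 and Ccl4, Ccl5, Ccl6 and Ccl24 below 0 in all 18, while Ccl8, Ccl9 and Ccl3 crossed 0.

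Across 18 other ways of scaling, filtering and testing, including the removal of each library, 7 members kept their sign in all 18. All 18 reuse the same libraries, and the share of all tested genes that kept their sign is not given here. Ccl2 ranged from 0.69 to 1.17 on the log2 scale, Ccl7 from 0.97 to 1.44 and Ccl12 from 0.75 to 1.38. Ccl5 ranged from −1.81 to −1.04, Ccl6 from −0.82 to −0.37, Ccl24 from −2.51 to −1.24 and Ccl4 from −0.86 to −0.16. Ccl3 kept its sign in 17, Ccl9 in 14 and Ccl8 in 10. Ccl7 passed the threshold most often, in 7 of the 18, then Ccl2 in 5, Ccl5 and Ccl12 in 4, Ccl24 in 3 and Ccl4 and Ccl6 in 1, and Ccl3, Ccl8 and Ccl9 in 0. Beside the fits named above, these were the fit with no filter on low counts (2.02% of genes called) and the GC offset without the library labelled MHC-II low replicate 3 (2.29%). Scaling to total counts moved the median of all genes to 0.25, and the members' median was then 0.23.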

How the data were processed

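Total RNA of 6 libraries, 3 per label, was depleted of ribosomal RNA and sequenced. The authors deposited unnormalised read counts by gene, 1 table per library. Per the submitters' processing notes, STAR, HTSeq, Trimmomatic, FastQC and DESeq2 were used with GRCm38, and versions, annotation release and strand setting are not given. The 5 summary lines stayed out of library sizes: reads in no feature were 35.2% to 49.4% of the listed reads, ambiguous ones 0.324% to 0.864% and reads at several places 7.6% to 17.4%. GENCODE M21 gave symbols, exons and GC content, and matched 55227 of 55487 genes.

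The test was that of edgeR 4.0.16 in R 4.3.3 (TMM, default filter on low counts, quasi-likelihood test, adjusted p of 0.05 over all 14140 genes). CPM are counts over TMM-scaled library sizes. Fold changes are the high label over the low label. Levels between genes are CPM per kb, in place of the planned per-million scaling of length-corrected reads, since short RNAs distort that scale in 1 library. Sequences were aligned with Biopython 1.88. Alternatives were RLE and total-count scaling, DESeq2 1.42.0, limma-voom (limma 3.58.1), other filters, the replicate block, a GC offset (local regression, span 0.4) and leaving out libraries. On simulated data of 13768 genes, edgeR called 8.16% of 98 genes changed by a log2 fold of 1 and 79% of 100 changed by 2.

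The pairing comes from the labels, where a number marks a shared batch. Deviations from the label means correlated by 0.17, 0.39 and −0.28 between same-numbered libraries. Between differently numbered libraries they correlated by −0.64 to 0.53, a range that holds all the same-numbered values. No libraries held identical counts, and all pairs differed beyond sampling noise. All 10 members are named, with up to 4 genes of smallest p and every called gene of the other lists, the label check and the gate, and, for 9 members, the most alike protein-coding gene of at least 5 CPM. The members and lists were chosen with earlier results of these data known. Intervals cover the spread between these libraries only. Promoters of 5 members and all protein sequences were not used here. One receptor, 1 gene of like pattern and 1 coding stretch are not reported here.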

Additional observations from a re-analysis of the deposited data

How the results depend on the processing

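Without the block, edgeR called 13 genes higher and 50 lower under the high label. The number higher was 8 with total-count scaling and 1 with the replicate block. DESeq2 called 121 higher and 277 lower, no filter on low counts 113 and 436, the GC offset 150 and 216, the GC offset with the replicate block 241 and 376, and leaving out batch 3 gave 0 and 28. Leaving out 1 library gave 0 to 246 higher and 8 to 784 lower, with the highest counts when the library labelled MHC-II low replicate 2 was left out. An added setting, chosen after seeing the data, the GC offset without the library labelled MHC-II low replicate 3, called 160 and 181.

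Of the 10 chemokines, 0 were called higher and 0 lower. DESeq2 called 3 higher and 2 lower, no filter on low counts 3 and 2 (2.02% of all genes), the GC offset 1 and 0, the GC offset with the replicate block 3 and 2, and the GC offset without the library labelled MHC-II low replicate 3 called 2 higher (2.29%). Leaving out 1 library gave 0 to 3 higher and 0 to 3 lower: 3 and 3 without the library labelled MHC-II low replicate 2 (7.16%), and 1 higher without that labelled MHC-II low replicate 3 (0.469%). The replicate block alone called 0 members, as did the fit without it. Added to the GC offset, the block moved the calls from 1 higher and 0 lower to 3 higher and 2 lower. The cause of these moves was not tested.

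Signs turned for 3 members whose labels overlapped. Ccl3 had a log2 fold change of 0.17 with total-count scaling. Ccl8 had 0.29 with total-count scaling, 0.21 with limma-voom, 0.04 without a filter, 0.07 with the replicate block, 0.06 with the GC offset without the library labelled MHC-II low replicate 3, and −0.45 to 0.47 when 1 library was left out. Ccl9 had −0.02 with the GC offset both with and without the replicate block, −0.08 without batch 3 and −0.04 with the offset when the library labelled MHC-II low replicate 3 was left out. The difference in the share of Ccl8 was 0.0149 percentage points with the GC offset and −0.187 to 0.0462 when 1 library was left out, and that of Ccl3 was then −0.886 to 0.0268. The scarce members, Ccl5 with 19 to 63 reads and Ccl8 with 39 to 206, are limited by depth.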
